A study of Macaca mulatta with 10 samples.

Results

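Genes of the proteasome, its assembly factors and its regulators were followed in the testis of juvenile male rhesus macaques (Macaca mulatta) given gonadotropins. They were all loci of the deposited count table that carry a single symbol made of PSMA, PSMB, PSMC, PSMD, PSME, PSMF or PSMG and a number. Of loci that share a symbol, that with the most reads on average was taken. This gave 46 genes among 26813 loci, from a list of 48 symbols. PSMB11, a core subunit of the thymus, was not analysed here, and PSMG1 was present only in a locus joined with BRWD1, whose reads cannot be divided.

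The series sequenced total RNA of the right testis of 10 wild type animals and asks which genes change when undifferentiated spermatogonia commit to differentiation. Each animal received a pulsatile infusion of vehicle or of FSH and LH, gonadotropins whose receptors sit on Sertoli and on Leydig cells. The vehicle group had 3 animals, TP07, TP09 and TP11, aged 24, 14 and 15 months. The group given FSH and LH for 48 h had 3 animals, TP08, TP10 and TP12, aged 22, 14 and 15 months. The group given FSH and LH for 96 h had 4 animals, TP15 to TP18, all aged 14 months. How long vehicle was infused is not given in the sources used here. The 96 h animals carry a separate run of animal numbers, so a batch by number cannot be told apart from 96 h of treatment, and age was not balanced between 96 h and the other groups.

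The proteasome is the main protease of the cytosol and nucleus, and it degrades proteins tagged with ubiquitin. Its barrel-shaped core has outer rings of alpha subunits and inner rings of beta subunits, of which PSMB5, PSMB6 and PSMB7 carry the active sites. A cap, made of an ATPase base and a lid, binds ubiquitin chains, removes them and unfolds the substrate, while other activators open the core without ubiquitin. In immune cells and after interferon PSMB8, PSMB9 and PSMB10 can replace the catalytic subunits, and in meiotic germ cells PSMA8 can replace PSMA7.

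The 46 genes comprised 8 alpha subunits, 7 constitutive beta subunits, 3 beta subunits of the immunoproteasome and 17 cap subunits. The others were 3 chaperones of the cap, 3 chaperones of the core, 4 activators and the inhibitor PSMF1. All 46 were kept by the expression filter, and 45 had a mean count of at least 200 per library. The exception was PSMC1, at 188.5 counts, whose locus is 1 exon of 1567 bp on an unplaced scaffold. The gene on chromosome 7 is joined in the table with KCNK13, so the identity of the PSMC1 locus is uncertain. The same holds for PSMG2, counted here over 1 exon of 1068 bp on chromosome 2 (165986668 to 165987735, rheMac8), whereas the reference table of assembly T2T-MMU8v2.0 lists PSMG2 on chromosome 18. Exons of 10 members overlap a locus on the opposite strand and those of 0 members a locus on the same strand. The largest overlap was at PSMA3, with 42.5% of exonic bases. Whether reads were counted by strand is not given in the sources used here.

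Library totals ran from 21824233 to 30375928 counts. The 46 genes took 0.252% to 0.277% of the counts in vehicle libraries, 0.353% to 0.389% at 48 h and 0.288% to 0.317% at 96 h. Of 6 Sertoli and 6 Leydig cell markers all were measured in the testes, and AMH of Sertoli cells was at 935 ± 245 CPM in vehicle (SD, n = 3). TP08, the oldest of the 48 h animals, held the highest 48 h value at 37 of 46 genes, and TP09 held the lowest vehicle value at 31 of 46. Levels of a gene are CPM, its counts scaled to the library total with TMM factors, given per animal or as mean ± SD, and log2 fold changes are given ± SE. Because every library is 1 animal, the tests set differences against variation among animals.

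After 48 h of gonadotropin, proteasome RNA was higher across the core and the cap. Of the 46 genes, 33 rose and 0 fell against vehicle (edgeR adjusted p under 0.05). Over all loci 8.53% rose and 3.67% fell. Of the 10971 loci that stand for a single symbol with a mean count of at least 200, a set chosen after seeing the data, 17.5% rose and 3.74% fell. The median log2 fold change was 0.57 over the 46 genes, -0.07 over all loci and 0.11 over those 10971 loci. At an unadjusted p under 0.05, 37 genes were higher and 0 lower, against 15.2% and 12.7% of all loci. DESeq2 called 35 higher and 0 lower, against 12.6% and 6.31%. The 48 h and vehicle testes did not overlap at 38 of the 46 genes in the higher direction, against 18.1% of all loci and 33.5% of the 10971. In the lower direction they did not overlap at 1 gene, PSMA8, against 18% and 12.8%.

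The summed level of the 46 genes was 2615, 2375 and 2592 CPM in vehicle libraries TP07, TP09 and TP11. It was 3932, 3543 and 3537 CPM in 48 h libraries TP08, TP10 and TP12. All 48 h testes thus stood above all vehicle testes, and TP08 stood above the other 48 h testes. In whole testis, fewer cells of a type and less RNA per cell cannot be told apart, for a rise as for a fall. Of 6 Leydig cell markers 5 rose at 48 h, and their summed level was 196 to 346 CPM in vehicle and 1710 to 2113 CPM at 48 h. Of 6 Sertoli cell markers 2 rose, with sums of 1445 to 1876 and 1647 to 2171 CPM. Of 4 markers of peritubular cells, the contractile cells around the tubules, 2 rose at 48 h, ACTA2 and TAGLN, and 2 at 96 h. Their sums were 345 to 379 CPM in vehicle, 548 to 842 CPM at 48 h and 476 to 1087 CPM at 96 h. The peritubular count at 96 h was 1 without TP07, TP11, TP15 or TP17, 3 without TP16 and 1 without both animals over 20 months (TP07 and TP08). The part of these cell types in the proteasome values was not tested. Under upper-quartile scaling, which moved the median of all loci from -0.07 to -0.20, 28 of the 46 rose and 0 fell at a median of 0.44, while the split over all loci moved from 2288 higher and 985 lower to 1392 higher and 1732 lower. Without both animals over 20 months 18 of the 46 genes were called, all among the 33, and the median log2 fold change was 0.54. In that fit 696 of all loci rose, against 2288 with all animals.

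**Figure D1:**
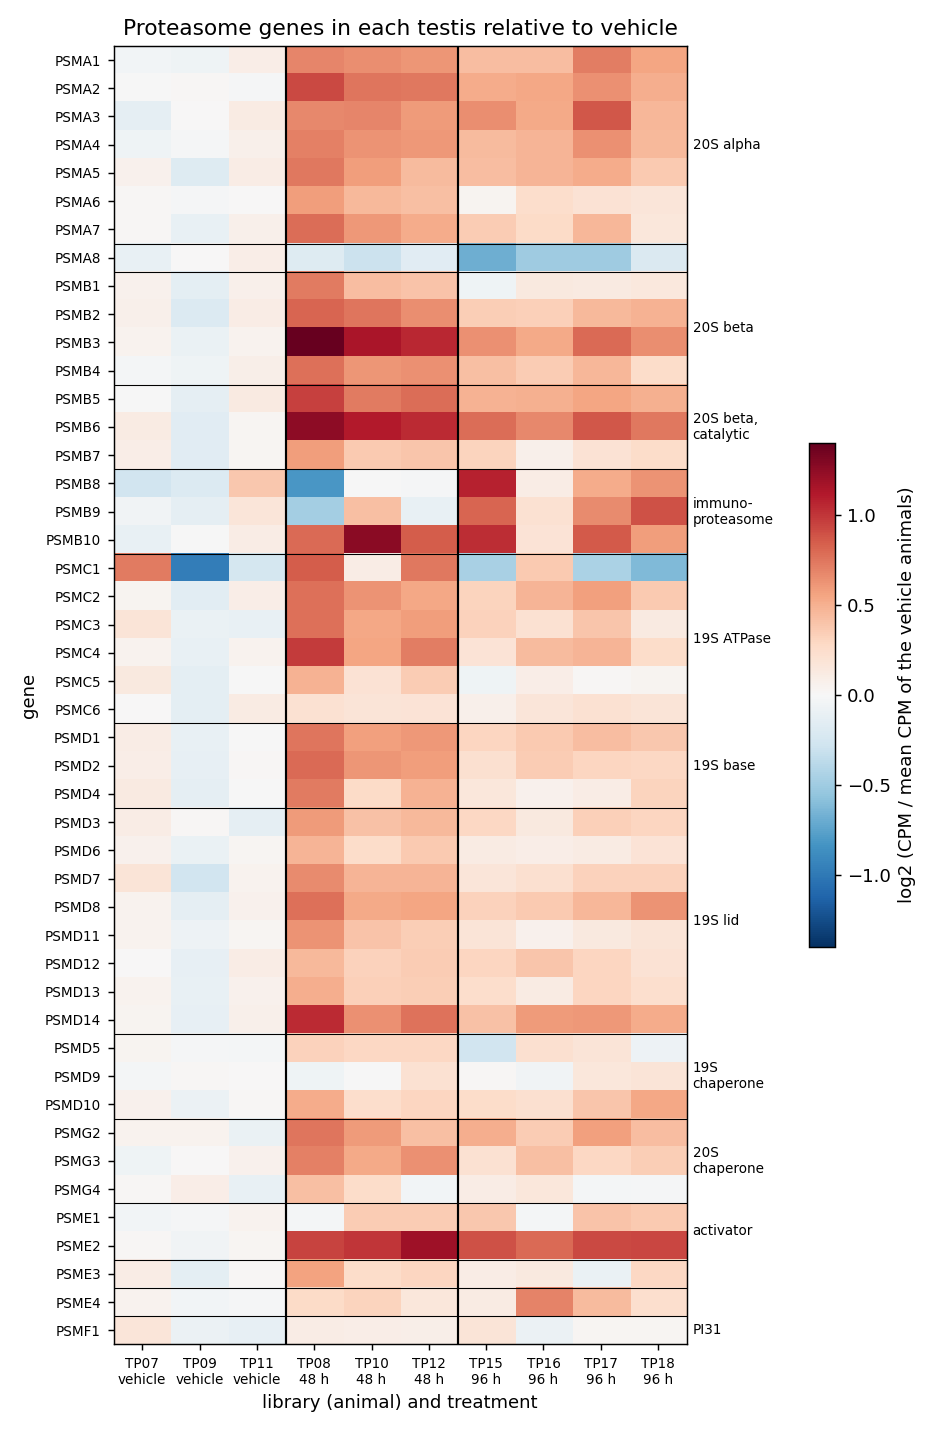
Level of each proteasome gene (rows, grouped by role) in each testis (columns, by treatment), as log2 of its CPM over the mean CPM of the 3 vehicle testes. Red rows in the 48 h columns cover the core, most of the cap and PSME2, the 96 h columns are paler for most genes, and PSMA8, PSMB8, PSMB9 and PSMC1 stand apart.

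After 96 h, 22 of the 46 genes rose and 0 fell against vehicle (edgeR adjusted p under 0.05), where 10.6% of all loci rose and 6.89% fell. Of the 10971 loci with a single symbol and a mean count of at least 200, 20.2% rose and 5.52% fell. The median log2 fold change was 0.32, against -0.01 over all loci and 0.12 over those 10971. At an unadjusted p under 0.05, 32 genes were higher and 1 lower, against 18.1% and 16% of all loci. DESeq2 called 27 higher and 1 lower, against 14.6% and 9.18%. In the constitutive core 11 of 14 subunits rose, and in the cap 6 of 17. These counts were 10 and 10 with age as a covariate, 11 and 9 with DESeq2, 9 and 5 with age class as a block, and 7 and 1 under upper-quartile scaling. The block, added after seeing the data, put animals aged 14, those aged 15 and the older pair in classes of their own. The difference between core and cap was not tested. The 96 h and vehicle testes did not overlap at 30 of the 46 genes in the higher direction, against 15.9% of all loci and 28.5% of the 10971. In the lower direction this was 1 gene, PSMA8, against 14.9% and 9.85%. Under upper-quartile scaling, which moved the median of all loci to -0.16, 9 genes rose and 1 (PSMA8) fell at a median of 0.17, while the split over all loci moved from 2836 higher and 1848 lower to 1687 higher and 3532 lower. With TP17 left out 14 rose, and with both animals over 20 months left out 13 rose, at a median of 0.36. In these fits 1934 and 1447 of all loci rose, against 2836 with all animals.

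The summed level of the 46 genes at 96 h was 3070, 3175, 3313 and 3160 CPM in TP15, TP16, TP17 and TP18. All 4 lay above the vehicle range and below the 48 h range. Of 5 markers of dividing cells 5 rose at 96 h, with sums of 103 to 218 CPM in vehicle, 182 to 342 CPM at 48 h and 701 to 848 CPM at 96 h, and 5 of 6 Leydig cell markers rose, with a sum of 1256 to 1584 CPM. Dividing cell markers were thus highest at 96 h, whereas the summed proteasome level was highest at 48 h, and the part of these cells was not tested. Both comparisons with vehicle use the same 3 vehicle animals. A call at 1 time and not at the other is not itself a difference between the times.

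The difference between the times was tested directly. For 39 of 46 genes the 48 h mean lay above the 96 h mean and the 96 h mean above that of vehicle. PSMB3, a beta subunit without an active site, was the 1 gene that passed, at a log2 difference of -0.56 ± 0.11 for 96 h against 48 h (edgeR adjusted p = 0.0346), and 0 genes were higher. Over all loci 0.25% were lower and 0.817% higher, and over the 10971 loci 0.538% and 1.43%. At an unadjusted p under 0.05, 25 of the 46 were lower and 2 higher, against 9.18% and 11.8% of all loci. DESeq2 called 16 lower and 1 higher, the latter PSMB8, against 2.81% and 4%. The 2 higher at the unadjusted level were PSMB8, at 0.86 ± 0.28, and PSMB9, at 0.68 ± 0.24 (edgeR adjusted p = 0.14 and 0.165). Every 96 h testis was above every 48 h testis for PSMB8, the 1 gene without overlap in that direction, against 7.93% of all loci and 9.39% of the 10971. The median difference of the 46 genes was -0.25, against 0.02 over all loci. The 48 h and 96 h testes did not overlap at 24 genes in the lower direction, against 8.61% of all loci and 11.9% of the 10971, and these included all 7 constitutive beta subunits.

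The PSMB3 difference was lost without TP11, TP08, TP10, TP15, TP16, TP17 or TP18, with values from -0.62 to -0.44 and adjusted p from 0.051 to 0.157. With age as a covariate it was -0.49 and with age class as a block -0.48, and neither passed (edgeR adjusted p = 0.0925 and 0.241). Without both animals over 20 months 0 of the 46 genes passed between the times, and their median difference was -0.18.

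Alpha subunits form the outer rings of the core and gate its entrance. All 7 subunits PSMA1 to PSMA7 rose at 48 h, by log2 fold changes of 0.49 to 0.80 (median 0.65), and the 48 h and vehicle testes overlapped at none of the 7. PSMA2 had the highest log2 fold change of the 7. It was at 73.9, 74.6 and 73.4 CPM in vehicle testes TP07, TP09 and TP11 and at 140, 124 and 123 CPM in 48 h testes TP08, TP10 and TP12. At 96 h it was at 106, 108, 115 and 105 CPM in TP15 to TP18. The vehicle values were nearly equal, every treated testis lay above them, and every 48 h testis lay above every 96 h testis. The log2 fold changes of PSMA2 were 0.80 ± 0.08 at 48 h (edgeR adjusted p = 0.000439) and 0.55 ± 0.07 at 96 h (edgeR adjusted p = 0.00107).

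PSMA6 had the lowest log2 fold change of the 7 at both times. Its level was 57.6, 56.4 and 57.4 CPM in vehicle, 85.7, 78.4 and 76.4 CPM at 48 h and 58.6, 67.5, 65.8 and 64 CPM at 96 h, in the same order of animals. The 48 h values stood clear of all others, whereas the lowest 96 h value was close to vehicle. PSMA6 rose at 48 h by 0.49 ± 0.08 (edgeR adjusted p = 0.00469) and had 0.16 ± 0.08 at 96 h, which did not pass (edgeR adjusted p = 0.169). PSMA3 (chromosome 7, 120218784 to 120246486, plus strand, rheMac8) had the highest 96 h log2 fold change of the 7. Its CPM were 28.5, 31.2 and 33.9 in vehicle, 49.6, 50.2 and 47 at 48 h and 49, 45.2, 57 and 43 at 96 h, so both treated groups lay above vehicle and overlapped each other. Its log2 fold changes were 0.65 ± 0.12 and 0.64 ± 0.11 (edgeR adjusted p = 0.00571 and 0.00408). The overlapping locus on the opposite strand was at 10.1 to 13.5 CPM in vehicle, 7.99 to 12.1 CPM at 48 h and 10.2 to 14.6 CPM at 96 h, with no call at either time.

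PSMA7, the subunit that PSMA8 can replace, was at 64.2, 59 and 66.7 CPM in vehicle, 109, 96.4 and 90.5 CPM at 48 h and 80.8, 76.1, 87.4 and 70.8 CPM at 96 h. The 3 groups did not overlap. It rose by 0.64 ± 0.10 at 48 h (edgeR adjusted p = 0.00355) and by 0.31 ± 0.10 at 96 h (edgeR adjusted p = 0.047). The 96 h call was lost in 15 of 20 alternatives, among them the omission of TP07, TP09, TP11, TP10, TP12, TP15, TP16 or TP17, with adjusted p up to 0.135 in those 8 fits. PSMA8 (chromosome 18, 14623935 to 14680948, plus strand), the alpha subunit of meiotic germ cells, did not follow. Its level was 8.42, 9.1 and 9.69 CPM in vehicle, 7.99, 7.36 and 8.12 CPM at 48 h and 5.66, 6.44, 6.43 and 7.88 CPM at 96 h. Every treated testis lay below every vehicle testis, with the lowest values at 96 h. The log2 fold changes of PSMA8 were -0.21 ± 0.17 at 48 h (edgeR adjusted p = 0.449) and -0.46 ± 0.16 at 96 h (edgeR adjusted p = 0.0692), neither past the threshold. The 96 h difference passed without TP18, at -0.55 (edgeR adjusted p = 0.0417), and under upper-quartile scaling, with DESeq2 and with a count minimum.

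Germ cell markers were read beside PSMA8. Of 5 germ cell markers 1 fell at 48 h and 4 fell at 96 h, with sums of 305 to 417 CPM in vehicle, 223 to 319 CPM at 48 h and 174 to 270 CPM at 96 h. With TP07 or TP11 left out 2 germ cell markers fell at 96 h, and with both animals over 20 months left out 0 did. Of 5 meiotic markers 2 fell at 96 h, with 0 when TP07 or TP11 was left out, 1 when TP08, TP12, TP15, TP16 or TP17 was, and 0 without both older animals. Their sums were 50.4 to 61.2, 39.8 to 50.5 and 31.7 to 47.3 CPM in the same order. No germ cell or meiotic marker was at 0, and their part in the level of PSMA8 was not tested. Per kb of exon, the mean ratio of PSMA8 to PSMA7 was 0.129 ± 0.0104 over the 3 vehicle testes, 0.0716 ± 0.00788 over the 3 of 48 h and 0.0762 ± 0.0167 over the 4 of 96 h. Vehicle ratios did not overlap those of either treated group, and the treated groups overlapped each other. The ratio was not tested, and its denominator PSMA7 rose at 48 h by a log2 fold change of 0.64.

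Constitutive beta subunits held the largest rises of the core. All 7 subunits PSMB1 to PSMB7 rose at 48 h, by log2 fold changes of 0.46 to 1.21 (median 0.73). Among the 4 without an active site, PSMB3 (chromosome 16, 44448424 to 44460566, plus strand) had the highest log2 fold change and PSMB1 the lowest. PSMB3 was at 26.2, 23.9 and 26.2 CPM in vehicle, at 68.2, 56 and 52.8 CPM at 48 h and at 39.5, 36.7, 43.9 and 39.8 CPM at 96 h. The 3 groups were separate, with 96 h between the others. PSMB3 rose 2.32-fold at 48 h, or 1.21 ± 0.12 on the log2 scale (edgeR adjusted p = 0.000367), and by 0.65 ± 0.11 at 96 h (edgeR adjusted p = 0.00323). PSMB1 was at 104, 90.8 and 105 CPM in vehicle, 166, 135 and 132 CPM at 48 h and 95.9, 110, 109 and 111 CPM at 96 h. It rose by 0.53 ± 0.11 at 48 h (edgeR adjusted p = 0.00993), while its 96 h values overlapped vehicle, at 0.09 ± 0.10 (edgeR adjusted p = 0.57). That small 96 h value was -0.06 under upper-quartile scaling.

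Among the catalytic subunits, PSMB6 (chromosome 16, 4724286 to 4726627, plus strand), the caspase-like site, was at 42.8, 35.5 and 40.5 CPM in vehicle, 94.4, 85.6 and 81.9 CPM at 48 h and 68.2, 63.2, 72.4 and 66.3 CPM at 96 h. Treated testes were clear of vehicle, and 48 h was clear of 96 h. PSMB6 rose by 1.14 ± 0.10 at 48 h and by 0.77 ± 0.09 at 96 h on the log2 scale (edgeR adjusted p = 0.000318 and 0.000595). PSMB5 (chromosome 7, 84372754 to 84382235, minus strand), the chymotrypsin-like site, was at 47.5, 43.7 and 52.2 CPM in vehicle, 93, 79.1 and 81.9 CPM at 48 h and 67, 67.5, 70 and 67.6 CPM at 96 h. Its 3 groups did not overlap, and it rose by 0.83 ± 0.09 and by 0.51 ± 0.09 (edgeR adjusted p = 0.00079 and 0.00393).

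PSMB7, the trypsin-like site, had the lowest log2 fold changes of the 3 catalytic subunits. It was at 108, 90.6 and 103 CPM in vehicle, 152, 130 and 132 CPM at 48 h and 125, 106, 116 and 121 CPM at 96 h. It rose by 0.46 ± 0.10 at 48 h (edgeR adjusted p = 0.0138). Without TP09 or TP08 that value was 0.38 in each fit and did not pass (edgeR adjusted p = 0.0592 and 0.0632). At 96 h the lowest PSMB7 value lay below the highest vehicle value, and the difference of 0.22 ± 0.09 did not pass (edgeR adjusted p = 0.129).

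**Figure D2:**
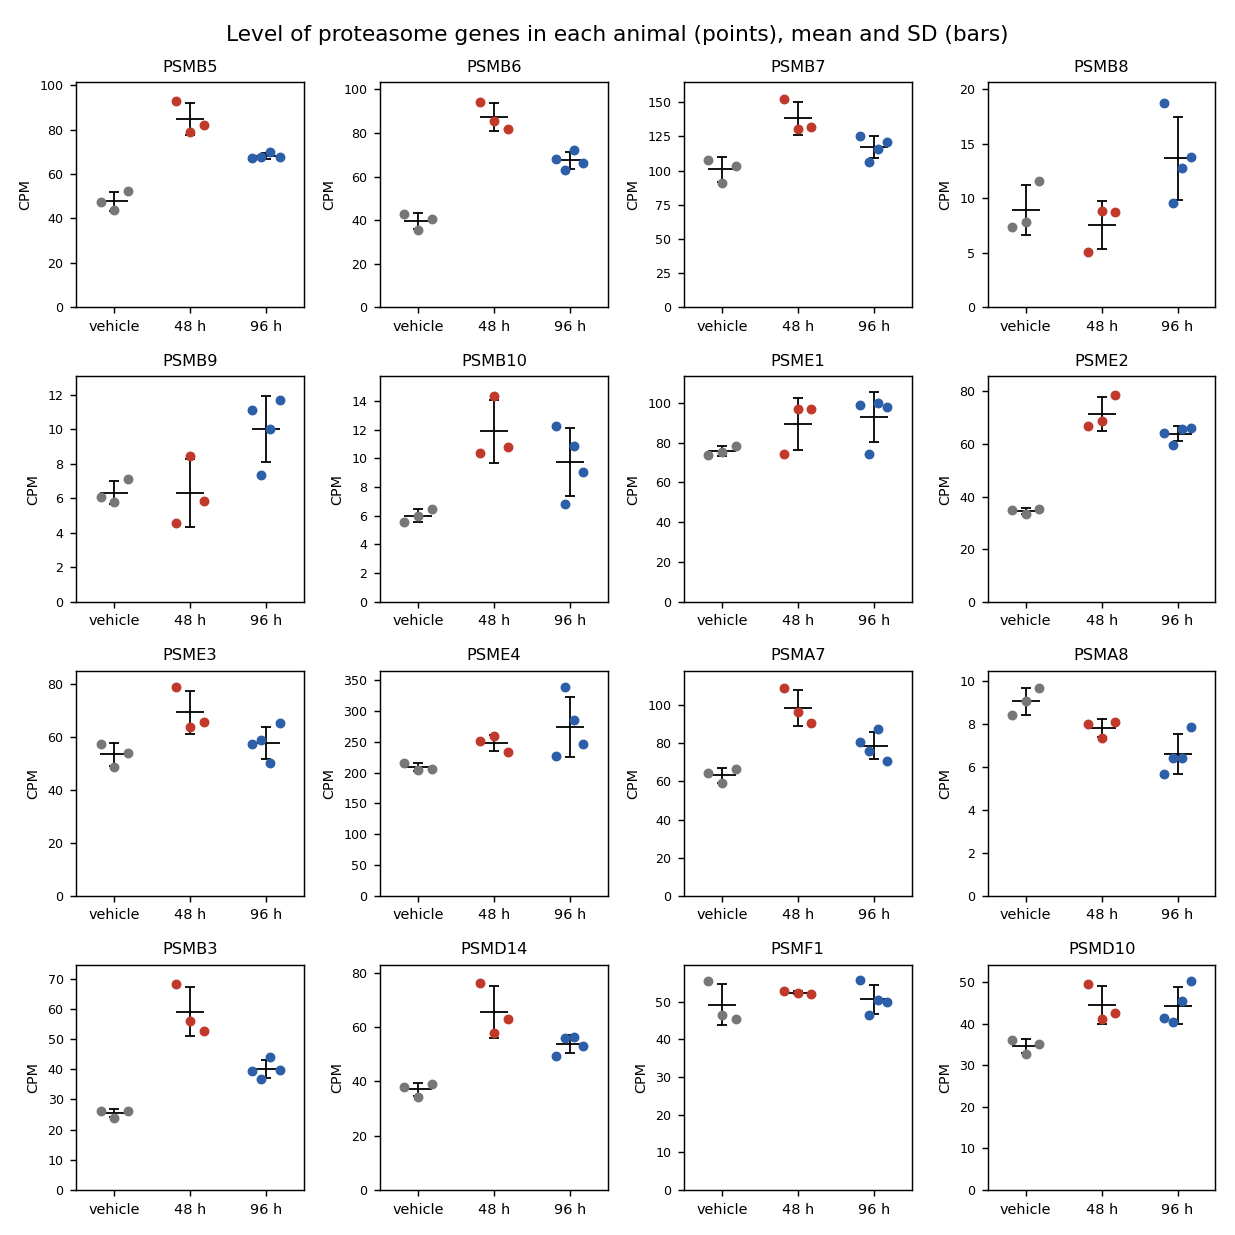
CPM of 16 proteasome genes in each testis (points) with the group mean and SD (bars), for vehicle, 48 h and 96 h. PSMB5, PSMB6, PSMB3 and PSME2 have treated testes clear of vehicle, PSMB8 and PSMB9 overlap vehicle at 48 h, and PSMF1 overlaps in all groups.

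The immunoproteasome subunits were low, and of the 3 genes PSMB10 alone passed at 48 h. At that time 8.53% of all loci and 17.5% of the 10971 rose. PSMB10 (chromosome 20, 52300763 to 52303132, minus strand), the replacement of PSMB7, was at 5.58, 5.99 and 6.46 CPM in vehicle, 10.4, 14.4 and 10.8 CPM at 48 h and 12.3, 6.84, 10.9 and 9.05 CPM at 96 h. Both treated groups lay above vehicle, with TP16 closest to it. PSMB10 rose by 0.98 ± 0.23 at 48 h and 0.70 ± 0.22 at 96 h (edgeR adjusted p = 0.018 and 0.0466). The 48 h call was lost without TP07, TP09 or TP10, at 0.93, 0.98 and 0.82 (edgeR adjusted p = 0.0577, 0.0604 and 0.0588), and the 96 h call was lost in 14 of 20 alternatives. Those included the omission of TP07, TP09, TP11, TP08, TP12, TP15, TP17 or TP18, with log2 fold changes from 0.57 to 0.76 and adjusted p up to 0.141.

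PSMB8 (chromosome 4, 33657298 to 33661534, minus strand) replaces PSMB5, and PSMB9 (chromosome 4, 33670200 to 33675895, plus strand) replaces PSMB6. The pair lies 8.66 kb apart in the major histocompatibility complex. PSMB8 was at 7.4, 7.82 and 11.6 CPM in vehicle, 5.06, 8.87 and 8.8 CPM at 48 h and 18.8, 9.59, 12.8 and 13.8 CPM at 96 h. PSMB9 was at 6.08, 5.79 and 7.08 CPM in vehicle, 4.55, 8.44 and 5.86 CPM at 48 h and 11.1, 7.34, 10 and 11.7 CPM at 96 h. At 48 h both genes overlapped vehicle, with TP08 the lowest testis for each, which is the reverse of its place for most members. At 96 h PSMB9 lay above vehicle in all 4 testes and PSMB8 in 3 of 4 lay above the highest vehicle value. The 48 h log2 fold changes were -0.24 ± 0.29 for PSMB8 and -0.01 ± 0.25 for PSMB9 (edgeR adjusted p = 0.636 and 0.988), and the latter was 0.02 with RLE scaling. At 96 h they were 0.62 ± 0.27 and 0.67 ± 0.24, which did not pass (edgeR adjusted p = 0.138 and 0.0743). PSMB9 passed without TP10 or TP16, at 0.67 and 0.79 (edgeR adjusted p = 0.0492 and 0.0442), and with DESeq2.

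Genes of antigen presentation, which works with the immunoproteasome, were read beside these subunits. Of 10 listed, 8 were measured and 0 passed at 48 h with edgeR, DESeq2 or an unadjusted p under 0.05. At 96 h the peptide transporter genes TAP2 and TAP1 rose by log2 fold changes of 0.96 and 0.76 (edgeR adjusted p = 0.00501 and 0.0217). The TAP1 call was lost without TP07 or TP09, at 0.67 and 0.76 (edgeR adjusted p = 0.0859 and 0.0585). It was also lost with age as a covariate, at 0.60, and with age class as a block, at 0.57 (edgeR adjusted p = 0.0652 and 0.165). White blood cell markers were read over the same samples. Of 8 macrophage markers 0 rose at 48 h (2 at an unadjusted p under 0.05 and 2 with DESeq2) and 3 rose at 96 h. Their sums were 90.5 to 198 CPM in vehicle, 155 to 251 CPM at 48 h and 191 to 375 CPM at 96 h, with TP16 the lowest 96 h testis. The macrophage count at 96 h was 0 without TP07, TP11 or TP17, 1 without TP09 or TP15, 6 without TP16 and 0 without both animals over 20 months. Of 3 general leukocyte markers 0 passed at 48 h and 1 rose at 96 h, or 3 with DESeq2. The 1 was PTPRC, which rose to 70.9 ± 3.09 from 45.4 ± 8.84 CPM (edgeR adjusted p = 0.00528). Of 7 lymphocyte markers 3 were measured, none of the 3 was at 0 in any library, and 0 passed at either time. Their sums were 3.47 to 4.94 CPM in vehicle, 2.23 to 4.11 CPM at 48 h and 2.18 to 4.6 CPM at 96 h. Their median log2 fold changes were -0.51 at 48 h and -0.48 at 96 h. The part of these cells in the values of PSMB8, PSMB9 and PSMB10 was not tested.

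Set against the subunits they replace, the immunoproteasome genes were minor in every group. Per kb of exon, the mean ratio of PSMB8 to PSMB5 was 0.131 ± 0.0236 over the 3 vehicle testes, 0.0646 ± 0.0227 over the 3 of 48 h and 0.143 ± 0.0412 over the 4 of 96 h. For PSMB9 to PSMB6 it was 0.086 ± 0.00887, 0.0391 ± 0.0136 and 0.0799 ± 0.0143. In both pairs every 48 h ratio lay below every vehicle ratio, and 96 h overlapped vehicle. For PSMB10 to PSMB7 it was 0.135 ± 0.0169, 0.196 ± 0.0488 and 0.186 ± 0.0359, with every 48 h ratio above every vehicle ratio and 96 h overlapping vehicle. At 48 h PSMB5 and PSMB6 rose by log2 fold changes of 0.83 and 1.14, while PSMB8 and PSMB9 did not pass, at -0.24 and -0.01. All these ratios restate the levels of their genes in each library and were not tested. They rest on the exonic length of the transcript models, and with the longest transcript in its place the vehicle ratio of PSMB8 to PSMB5 was 0.0975.

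**Figure D3:**
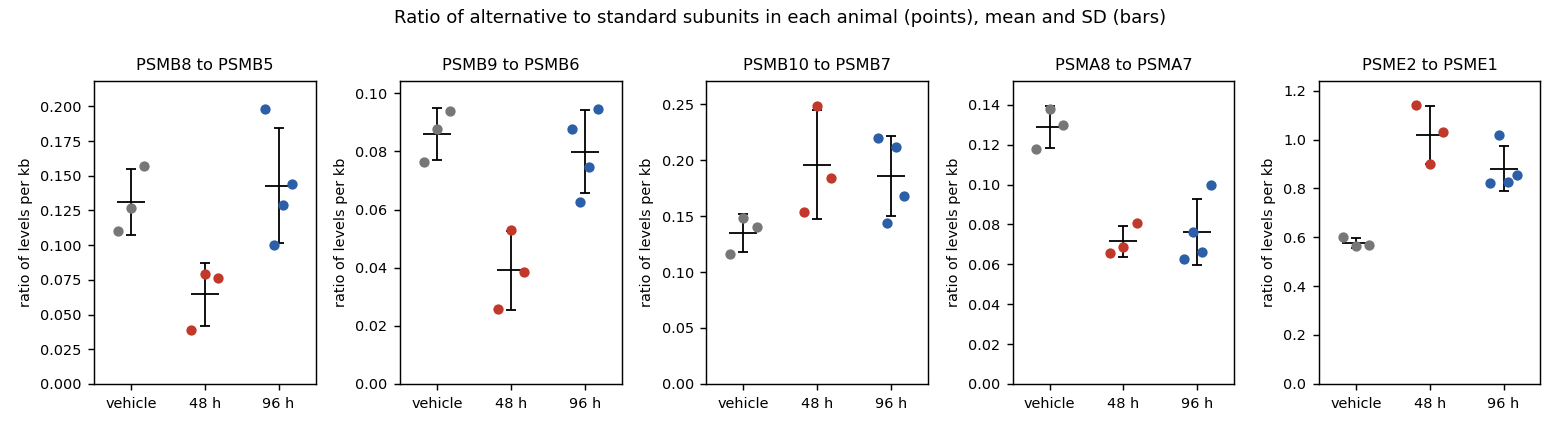
Ratio of levels per kb of exon between 5 pairs of subunits in each testis (points), with mean and SD (bars), for vehicle, 48 h and 96 h. The ratios of PSMB8 to PSMB5, PSMB9 to PSMB6 and PSMA8 to PSMA7 are lowest or near lowest at 48 h, while that of PSME2 to PSME1 is highest at 48 h.

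The cap binds and unfolds substrates. Of its 17 subunits 15 rose and 0 fell at 48 h, at a median of 0.54 on the log2 scale. The count was 9 without TP08, 10 without TP09 and 8 without both animals over 20 months. Over all loci 1240, 1298 and 696 rose in the same fits, against 2288 with all animals. Of the 6 ATPases, which form the ring that threads the substrate into the core, 4 rose at 48 h. PSMC4 had the highest log2 fold change of these, at 46.6, 41.8 and 46.7 CPM in vehicle, 88.6, 65.8 and 73.7 CPM at 48 h and 51.3, 61.2, 62.4 and 53.6 CPM at 96 h. Its groups did not overlap, and it rose by 0.75 ± 0.12 at 48 h (edgeR adjusted p = 0.00373), with 0.34 ± 0.12 at 96 h, which did not pass (edgeR adjusted p = 0.0627). It passed at 96 h without TP08, at 0.34 (edgeR adjusted p = 0.0439). PSMC2 was the 1 ATPase called at 96 h. It was at 71.3, 62.7 and 74 CPM in vehicle, 118, 107 and 101 CPM at 48 h and 86.2, 96.3, 103 and 89.1 CPM at 96 h, above vehicle in every treated testis. Its log2 fold changes were 0.65 ± 0.10 and 0.43 ± 0.09 (edgeR adjusted p = 0.00285 and 0.0121).

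PSMC6 was the flattest ATPase, at 86.5, 77.9 and 93.3 CPM in vehicle, 99.3, 97.3 and 97.9 CPM at 48 h and 89.9, 96.4, 99.3 and 97.4 CPM at 96 h. Its 48 h values lay just above vehicle and its 96 h values overlapped it. The differences of 0.19 ± 0.08 and 0.16 ± 0.08 did not pass (edgeR adjusted p = 0.159 and 0.184). PSMC1, at the uncertain locus, was at 10.2, 3.15 and 5.2 CPM in vehicle, 11.1, 6.64 and 10.3 CPM at 48 h and 4.5, 7.96, 4.56 and 4.04 CPM at 96 h. Its groups overlapped throughout, and neither difference passed, at 0.59 ± 0.41 and -0.23 ± 0.38 (edgeR adjusted p = 0.371 and 0.703). Without TP07 the 96 h value of PSMC1 was 0.33 (edgeR adjusted p = 0.58). The joined locus of PSMC1 and KCNK13 was at 73.5 to 89.6 CPM in vehicle, 92.8 to 125 CPM at 48 h and 103 to 131 CPM at 96 h. Both treated ranges lay above vehicle, and the joined locus passed at 96 h, at 0.54 ± 0.13 (edgeR adjusted p = 0.0175), but not at 48 h, at 0.40 ± 0.13 (edgeR adjusted p = 0.077). PSMC3 rose at 48 h by 0.63 ± 0.11 and PSMC5 by 0.35 ± 0.10 (edgeR adjusted p = 0.00489 and 0.044). The PSMC5 call was lost in 9 of 20 alternatives, among them the omission of TP09, TP11, TP08, TP12, TP15 or TP18, with log2 fold changes from 0.28 to 0.35 and adjusted p up to 0.169.

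In the base, the scaffold subunits PSMD1 and PSMD2 and the ubiquitin receptor PSMD4 all rose at 48 h. PSMD2 was at 147, 127 and 140 CPM in vehicle, 239, 211 and 207 CPM at 48 h and 161, 176, 170 and 169 CPM at 96 h. Its 3 groups were separate, with log2 fold changes of 0.66 ± 0.09 at 48 h and 0.29 ± 0.08 at 96 h (edgeR adjusted p = 0.00128 and 0.0323). The 96 h call of PSMD2 was lost without TP07, TP09, TP11, TP16, TP17 or TP18, with values from 0.24 to 0.34 and adjusted p from 0.0529 to 0.109. PSMD1 was at 92.7, 80.2 and 85.6 CPM in vehicle, 145, 128 and 131 CPM at 48 h and 106, 111, 116 and 112 CPM at 96 h. It was likewise separate in the 3 groups and rose by 0.64 ± 0.08 and 0.37 ± 0.08 (edgeR adjusted p = 0.00128 and 0.0108). PSMD4 was at 61.4, 51.5 and 56.1 CPM in vehicle, 93.4, 67.9 and 78.6 CPM at 48 h and 62.8, 58.5, 60.4 and 69.9 CPM at 96 h. TP08 was far above the other 48 h testes, and 96 h overlapped vehicle. PSMD4 rose at 48 h by 0.51 ± 0.12 (edgeR adjusted p = 0.023) and had 0.16 ± 0.12 at 96 h (edgeR adjusted p = 0.361). Its 48 h call was lost without TP09, TP11, TP08 or TP12, at 0.44, 0.50, 0.38 and 0.52 (edgeR adjusted p = 0.0893, 0.0697, 0.0953 and 0.0571).

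All 8 lid subunits rose at 48 h, by a median of 0.47 on the log2 scale, and 3 rose at 96 h. The 48 h count of the lid was 4 without TP08 and 5 without TP09. In these fits 1240 and 1298 of all loci rose, against 2288 with all animals. PSMD14, the deubiquitinase that cleaves chains off the substrate, had the highest log2 fold change of the lid at both times. It was at 37.9, 34.1 and 38.9 CPM in vehicle, 76.2, 57.8 and 62.9 CPM at 48 h and 49.2, 55.9, 56.4 and 53 CPM at 96 h. All treated testes lay above vehicle, and the rises were 0.83 ± 0.11 and 0.54 ± 0.11 (edgeR adjusted p = 0.00161 and 0.00809). PSMD6 had the lowest log2 fold change of the lid at both times. It was at 55.7, 50.3 and 54.7 CPM in vehicle, 74.5, 63.9 and 69.3 CPM at 48 h and 58.1, 57.2, 58.1 and 61.3 CPM at 96 h. Its 96 h values lay just above vehicle. PSMD6 rose at 48 h by 0.37 ± 0.09 (edgeR adjusted p = 0.0183), a call lost without TP09, TP11, TP08 or TP12, at 0.33, 0.38, 0.31 and 0.37 (edgeR adjusted p = 0.0743, 0.0515, 0.0822 and 0.0559). Its 96 h value of 0.13 ± 0.08 did not pass (edgeR adjusted p = 0.279) and was -0.02 under upper-quartile scaling. The other lid subunits PSMD3, PSMD7, PSMD8, PSMD11, PSMD12 and PSMD13 had 48 h log2 fold changes from 0.38 (PSMD12) to 0.62 (PSMD8). Calls of PSMD12 and PSMD13 were lost without TP09 or TP08, and that of PSMD7 without TP08, with adjusted p from 0.0568 to 0.0663. At 96 h PSMD8 and PSMD12 rose by 0.45 ± 0.10 and 0.30 ± 0.08, and the latter was lost without TP07, TP09, TP16 or TP17 (edgeR adjusted p = 0.0838, 0.0916, 0.0538 and 0.056).

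**Figure D4:**
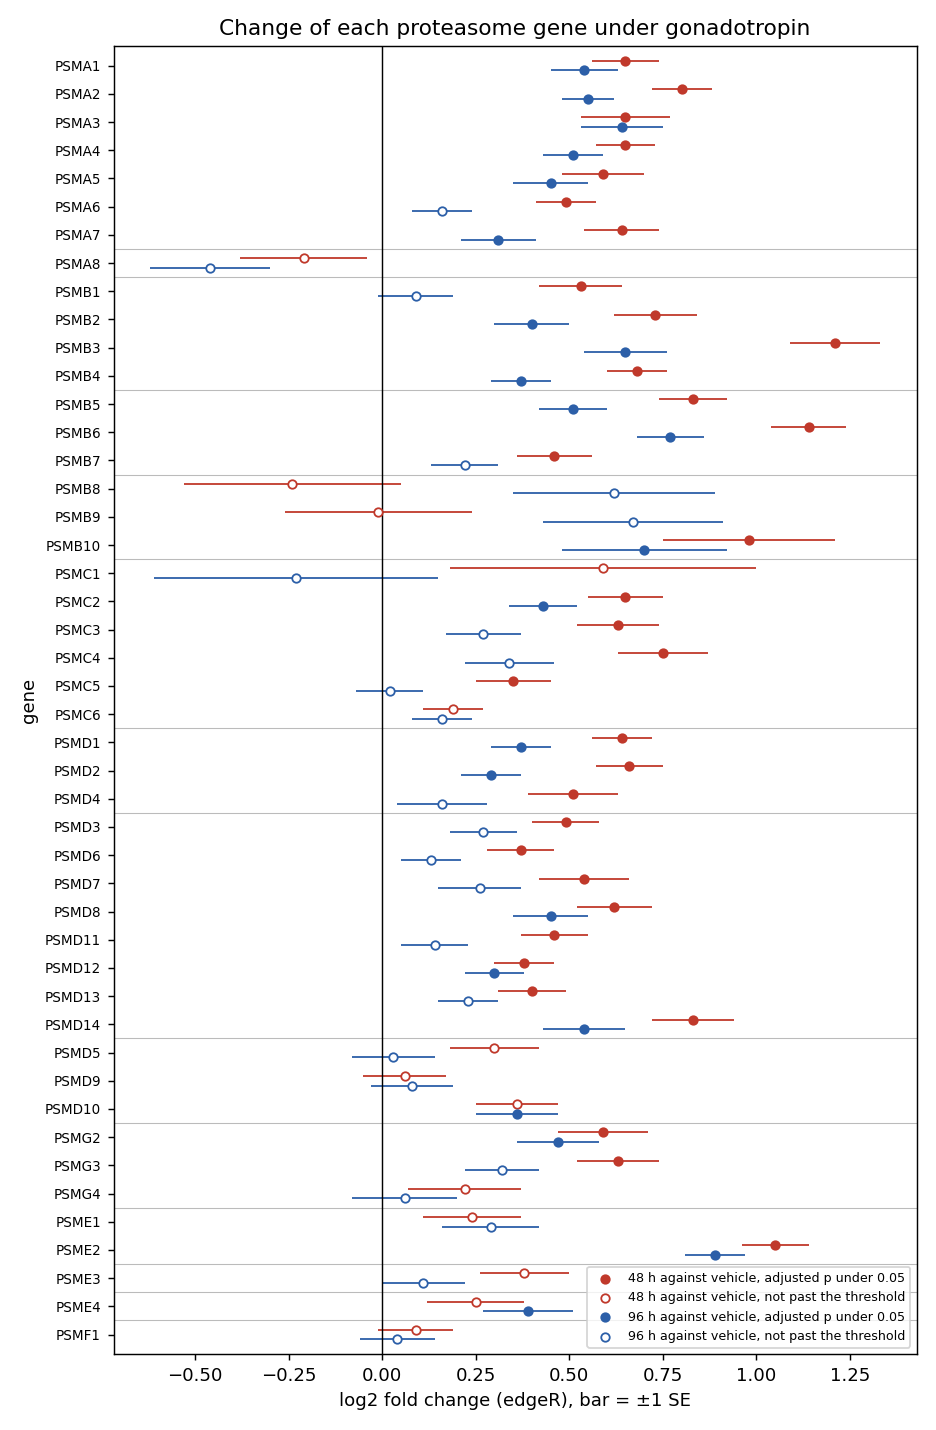
Log2 fold change of each proteasome gene against vehicle at 48 h (red) and 96 h (blue), with bars of 1 SE, where filled points passed the edgeR test at an adjusted p under 0.05. For most genes the 48 h point lies to the right of the 96 h point, PSMB3, PSMB6 and PSME2 lie farthest right at 48 h, and PSMA8 lies left of 0 at both times.

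Assembly factors build the core and the cap and leave the finished particle. Of the 3 chaperones of the core 2 rose at 48 h, where 8.53% of all loci and 17.5% of the 10971 rose. PSMG2 and PSMG3 rose by 0.59 ± 0.12 and 0.63 ± 0.11 (edgeR adjusted p = 0.0103 and 0.00478). Without both animals over 20 months their 48 h values were 0.53 and 0.55 and did not pass (edgeR adjusted p = 0.0952 and 0.0724). PSMG2, at the uncertain locus, was at 16.6, 16.5 and 15 CPM in vehicle, 26.8, 24.2 and 21.4 CPM at 48 h and 22.7, 20.5, 23.9 and 21.6 CPM at 96 h. All treated testes lay above vehicle, and its 96 h rise of 0.47 ± 0.11 (edgeR adjusted p = 0.0195) was lost without TP07, TP11 or TP17, at 0.49, 0.42 and 0.43 (edgeR adjusted p = 0.0525, 0.0786 and 0.0501). PSMG3 was at 15.4, 16.2 and 16.8 CPM in vehicle, 26.3, 23.3 and 25.1 CPM at 48 h and 18.7, 21.5, 19.7 and 20.5 CPM at 96 h. Its 3 groups were separate, but the 96 h difference of 0.32 ± 0.10 did not pass (edgeR adjusted p = 0.0528). It passed with RLE scaling and with DESeq2.

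PSMG4 was at 11.8, 12.5 and 10.9 CPM in vehicle, 15.7, 14 and 11.4 CPM at 48 h and 12.6, 13.1, 11.5 and 11.6 CPM at 96 h. Its groups overlapped and neither difference passed, at 0.22 ± 0.15 and 0.06 ± 0.14 (edgeR adjusted p = 0.367 and 0.804). The locus of PSMG1 with BRWD1 was at 591, 547 and 578 CPM in vehicle, 510, 492 and 482 CPM at 48 h and 449, 558, 500 and 482 CPM at 96 h. It showed no rise, at -0.21 ± 0.09 and -0.20 ± 0.09 (edgeR adjusted p = 0.164 and 0.124), and cannot be read for PSMG1.

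Chaperones of the cap base are PSMD5, PSMD9 and PSMD10, and 0 of 3 passed at 48 h with edgeR's quasi-likelihood test, 2 at an unadjusted p under 0.05 and 1 with DESeq2. With the 48 h and vehicle libraries fitted alone, PSMD10 and PSMD5 passed at 0.40 and 0.35 (edgeR adjusted p = 0.0403 and 0.0247), as they did with edgeR's exactTest (adjusted p = 0.0448 and 0.0395). PSMD10 (chromosome X, 102099822 to 102107599, minus strand), also known as gankyrin, was at 36.1, 32.7 and 35.1 CPM in vehicle, 49.6, 41 and 42.5 CPM at 48 h and 41.4, 40.4, 45.3 and 50.2 CPM at 96 h. Both treated groups lay above vehicle and overlapped each other. Its log2 fold change was 0.36 ± 0.11 at each time, past the threshold at 96 h (edgeR adjusted p = 0.0407) and not at 48 h (edgeR adjusted p = 0.062). The 96 h call was lost without TP07, TP09, TP11, TP12, TP17 or TP18, with values from 0.29 to 0.39 and adjusted p from 0.0569 to 0.114. PSMD5 was at 46.8, 45.1 and 44.5 CPM in vehicle, 57.1, 55.6 and 55.5 CPM at 48 h and 37.7, 53, 51.7 and 43.3 CPM at 96 h. Its 48 h testes lay above vehicle and its 96 h testes lay on both sides of it, and neither difference passed (edgeR adjusted p = 0.131 and 0.872). A locus on the opposite strand, with a mean count of 1189.6, overlaps 10.1% of its exonic bases. PSMD9 was at 21.7, 22.4 and 22.1 CPM in vehicle, 21.2, 22 and 25.7 CPM at 48 h and 22.3, 21.3, 24.7 and 25 CPM at 96 h, with overlap in all groups and no call (edgeR adjusted p = 0.772 and 0.623).

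Activators dock on the core in place of the cap. Of these 4 genes, 1 rose at 48 h and 2 at 96 h. Over all loci 8.53% and 10.6% rose, and over the 10971 loci described above 17.5% and 20.2%. PSME1 and PSME2 encode the alpha and beta subunits of PA28, an activator of the immunoproteasome, and lie on opposite strands 4.49 kb apart on chromosome 7 (85547359 to 85550547 and 85555034 to 85558291). PSME2 was at 34.9, 33.4 and 35.2 CPM in vehicle, 66.7, 68.9 and 78.6 CPM at 48 h and 64, 59.7, 65.6 and 66.2 CPM at 96 h. Vehicle testes were tightly grouped, and all 7 treated testes were far above them. PSME2 rose 2.07-fold at 48 h and 1.85-fold at 96 h, log2 fold changes of 1.05 ± 0.09 and 0.89 ± 0.08 (edgeR adjusted p = 0.000318 and 0.000219), and was called in all 20 alternatives at both times.

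PSME1 was at 73.6, 75.1 and 78.4 CPM in vehicle, 74.1, 96.8 and 96.8 CPM at 48 h and 98.7, 74.2, 100 and 97.8 CPM at 96 h. TP08 and TP16 stood at vehicle level and the other 5 treated testes above it. Its differences of 0.24 ± 0.13 and 0.29 ± 0.13 did not pass (edgeR adjusted p = 0.276 and 0.127), and without TP16 the 96 h value was 0.38 and passed (edgeR adjusted p = 0.0392). Per kb of exon, the ratio of PSME2 to PSME1 was 0.577 ± 0.0206 in vehicle, 1.02 ± 0.119 at 48 h and 0.881 ± 0.0931 at 96 h. Every treated ratio lay above every vehicle ratio. This pair was compared after its values were seen, and the ratio was not tested.

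PSME3 encodes a nuclear activator, PA28 gamma. It was at 57.6, 48.8 and 54 CPM in vehicle, 78.9, 64 and 65.7 CPM at 48 h and 57.3, 58.8, 50.1 and 65.2 CPM at 96 h. The 48 h testes lay above vehicle and 96 h overlapped it, and neither difference passed, at 0.38 ± 0.12 and 0.11 ± 0.11 (edgeR adjusted p = 0.0626 and 0.506). Without TP17 the 48 h value of 0.39 passed (edgeR adjusted p = 0.0428), as it did with DESeq2. PSME4 (chromosome 13, 54752842 to 54860080, minus strand) encodes PA200, known for its work on acetylated histones in male germ cells. It was at 216, 204 and 206 CPM in vehicle, 251, 259 and 233 CPM at 48 h and 226, 338, 285 and 246 CPM at 96 h. All treated testes lay above vehicle, with TP16 far above the others. PSME4 rose at 96 h by 0.39 ± 0.12 (edgeR adjusted p = 0.0496), a call lost in 15 of 20 alternatives. Those included the omission of any 1 of TP07, TP09, TP11, TP08, TP10, TP12, TP16 or TP17, with values from 0.27 to 0.42 and adjusted p up to 0.131. Its 48 h value of 0.25 ± 0.13 did not pass (edgeR adjusted p = 0.242).

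PSMF1, the PI31 protein, binds the core and inhibits it in vitro. It was at 55.4, 46.5 and 45.5 CPM in vehicle, 52.8, 52.3 and 52 CPM at 48 h and 55.8, 46.4, 50.3 and 50 CPM at 96 h. The groups overlapped, with differences of 0.09 ± 0.10 and 0.04 ± 0.10 (edgeR adjusted p = 0.593 and 0.783) that were -0.03 and -0.11 under upper-quartile scaling.

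Levels between genes are compared only per kb of exon, since longer transcripts yield more reads. In vehicle testes the 46 genes spanned 3.94 to 110 CPM per kb, with a median of 31.6. PSMB1, at 110 ± 8.87, and PSMB4, at 96.6 ± 5.1 CPM per kb, stood highest, followed by PSME1, at 73.7 ± 2.41 CPM per kb. The alpha subunits PSMA1 to PSMA7, present in equal number in the particle, spanned 33.8 to 56.8 CPM per kb, a 1.68-fold range that was 1.68-fold at 48 h and 1.81-fold at 96 h. The constitutive beta subunits spanned a 4.01-fold range in vehicle, 27.4 to 110 CPM per kb, from PSMB2 to PSMB1. The cap subunits spanned 3.94 to 48.9 CPM per kb, from the uncertain locus of PSMC1 to PSMD8. At the bottom were PSMB10, PSMA8, PSMB8 and PSMB9, with 6.06, 4.94, 4.31 and 3.96 CPM per kb. Counted from the highest, they ranked 42, 43, 44 and 45 over all exons and 42, 44, 45 and 43 with the longest transcript. Their order thus depended on the transcript models, but their place near the bottom did not. With the longest transcript PSMB9 was at 5.11 and PSMB5 at 46.1 CPM per kb, against 32.6 for PSMB5 over all exons.

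**Figure D5:**
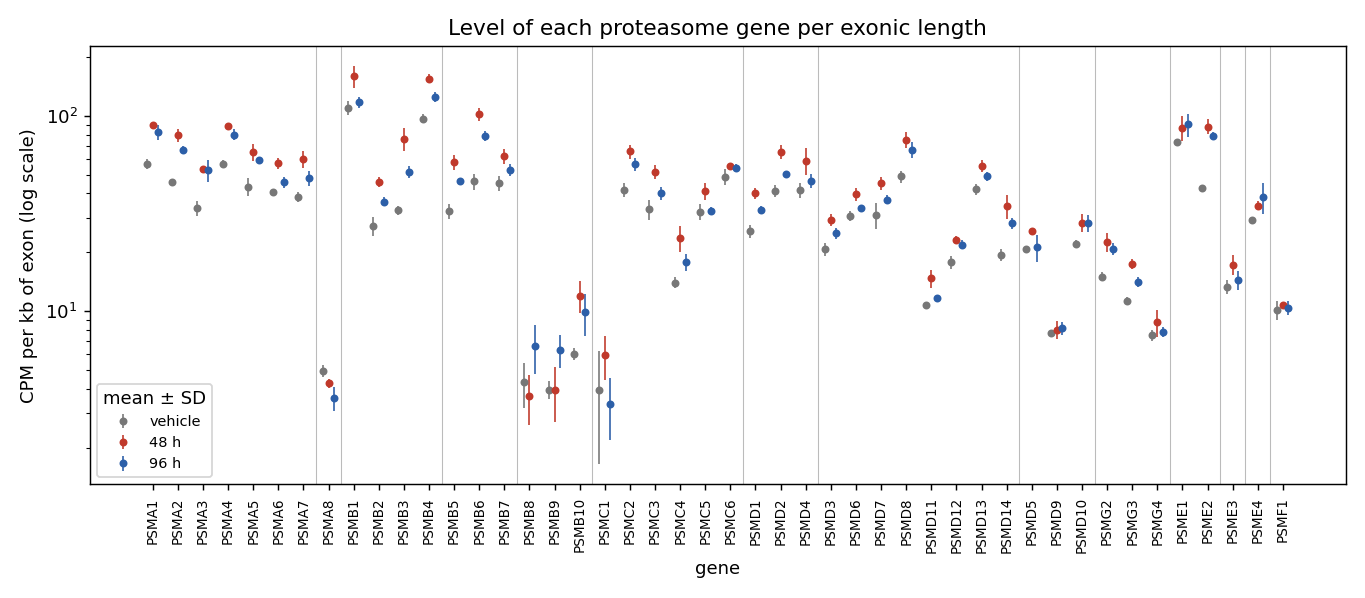
CPM per kb of exon of each proteasome gene on a log scale, as mean and SD over animals, for vehicle (grey), 48 h (red) and 96 h (blue). PSMB1 and PSMB4 are highest, the alpha subunits PSMA1 to PSMA7 lie within a narrow band, and PSMA8, PSMB8, PSMB9, PSMB10 and PSMC1 lie lowest.

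Other genes of the ubiquitin and proteasome pathway were read from a list of 31, of which 27 were measured. At 48 h 6 rose and 0 fell, and at 96 h 8 rose and 0 fell, and the median log2 fold changes over the 27 were 0.17 and 0.22. Of the 10971 loci with a single symbol and a mean count of at least 200, 17.5% and 20.2% rose, at medians of 0.11 and 0.12, and of all loci 8.53% and 10.6%. DESeq2 called 10 higher and 0 lower at each time, and at an unadjusted p under 0.05, 11 were higher and 0 lower at 48 h and 13 were higher and 1 lower at 96 h. The 48 h count was 3 without TP09, TP11 or TP08. The 96 h count was 2 without TP11, 4 without TP07, TP09 or TP17 and 5 without TP12 or TP15. Without both animals over 20 months 2 rose at 48 h and 3 at 96 h. In that fit 696 of all loci rose at 48 h and 1447 at 96 h, against 2288 and 2836 with all animals. Without TP09, TP11 or TP08, 1298, 1500 and 1240 of all loci rose at 48 h. Without TP11, TP07, TP09 or TP17, 1612, 1592, 1933 and 1934 rose at 96 h. Under upper-quartile scaling 3 rose at 48 h, and at 96 h 1 rose and 1 fell.

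The pathway genes that rose at 48 h included UFD1 and VCP, parts of the unfoldase that extracts ubiquitinated proteins, with log2 fold changes of 0.73 and 0.50 (edgeR adjusted p = 0.0016 and 0.00546). SEM1, a small lid subunit outside the symbol pattern, and POMP, the chaperone that matures the core, rose by 0.60 and 0.44 (edgeR adjusted p = 0.00594 and 0.018). The POMP call was lost without TP07, TP09, TP11, TP08 or TP10, with values from 0.41 to 0.45 and adjusted p from 0.0506 to 0.0679. At 96 h SEM1, UFD1 and UBQLN4, a shuttle of ubiquitinated proteins, had log2 fold changes of 0.56, 0.41 and 0.42 (edgeR adjusted p = 0.00563, 0.0157 and 0.0147). The call of UBQLN4 was lost without TP11, at 0.40 (edgeR adjusted p = 0.0618), and that of UFD1 without TP09, at 0.32 (edgeR adjusted p = 0.0534). NFE2L1, the transcription factor that raises proteasome genes when the protease is blocked, was at 204 ± 14.9 CPM in vehicle, 251 ± 8.93 CPM at 48 h and 240 ± 17 CPM at 96 h. It passed at 48 h, at 0.30 (edgeR adjusted p = 0.0484), and not at 96 h, at 0.24 (edgeR adjusted p = 0.0704), and it was the 1 gene called of 5 measured in the control of proteasome transcription. The NFE2L1 call was lost without TP09, TP11, TP08, TP10, TP12, TP15 or TP18, with adjusted p from 0.0559 to 0.161. ADRM1, a ubiquitin receptor of the cap outside the symbol pattern, was lower at 96 h than at 48 h, at a log2 difference of -0.55 (edgeR adjusted p = 0.0433). That call was lost without TP07, TP09, TP11, TP08, TP10, TP12, TP15, TP16 or TP17, with adjusted p from 0.0554 to 0.204.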

How the data were processed

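Whole-number counts per locus for 10 testis libraries were deposited by the authors in a table of 26813 loci. Per the submitters' processing notes reads were handled on build rheMac8 with HTSeq 0.6.1p1, Cufflinks 2.2.1, TopHat2 2.1.1, Bowtie2 2.2.8, cutadapt 1.9.1 and edgeR. A further 20 deposited columns of CPM were not used. The main test was edgeR's quasi-likelihood test (version 4.0.16, R 4.3.3; TMM, robust glmQLFit, glmQLFTest) with all 10 libraries and 1 mean per group, no covariate, and Benjamini-Hochberg adjustment over 26813 loci at 0.05. The expression filter removed 0 loci. SE was taken from the F statistic. DESeq2 1.42.0, other scalings, filters, age terms and left-out animals were alternatives. The code of the fit was run on simulated counts, drawn with a single spread for all loci and no age differences. That run checked the code and not the calls given here. Replicates differed by more than sampling noise (chi-square per degree of freedom 16.3 to 55). Exonic lengths came from the deposited transcript models. Members and lists were chosen with earlier results of these data known. Values per library are given for catalytic, immunoproteasome, activator, inhibitor and assembly genes, PSMA7 and PSMA8, and for the highest and lowest log2 fold change of each other role. Lists are given as counts with up to 4 called genes of smallest p, and the naming of NFE2L1 at 48 h lies outside that rule. Some genes that this rule names are not reported here. A planned search for promoter motifs was not run, since no sequence was used here.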

Additional observations from a re-analysis of the deposited data

Results flagged for a closer look

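In the 96 h group of 4 animals, 4 of 46 proteasome genes had a library whose gap to its nearest neighbour exceeded Dixon's limit for 4 samples as a share of the group's range, which chance exceeds in about 1 of 20 groups. PSMA4, an alpha subunit, was highest in TP17, at 109 CPM against 95.3 to 97.6 CPM in the others. PSMB1, a beta subunit, was lowest in TP15, at 95.9 CPM. PSMC1, at its uncertain locus, was highest in TP16, at 7.96 CPM. PSME1, the alpha subunit of PA28, was lowest in TP16, at 74.2 CPM, which is within the vehicle range. TP16 also held the lowest 96 h values of PSME2, PSMB8, PSMB9 and PSMB10 and the lowest sum of macrophage markers at 96 h, and the highest value of PSME4. These places of TP16 were noticed after the values were seen and were not tested.

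PSMB3 differed between the treatment times, with a tested log2 difference of -0.56 for 96 h against 48 h (edgeR adjusted p = 0.0346). All 4 of the 96 h testes lay below all 3 of the 48 h testes. The call was lost in 11 of 20 alternatives, among them age as a covariate and age class as a block (edgeR adjusted p = 0.0925 and 0.241).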

How the results depend on the processing

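No call of a gene changed direction in the 20 alternatives. Over 46 genes and 20 alternatives, 862 results at 48 h, 811 at 96 h and 892 between the times stayed on their side of the threshold, while 45, 90 and 11 lost their call and 13, 19 and 17 gained it. Without both animals over 20 months the calls of proteasome genes were 18 at 48 h, 13 at 96 h and 0 between the times, and those of all loci were 850 (3273 with all animals), 1940 (4684) and 3 (286). With age as a covariate and with age class as a block, which was added after seeing the data, all loci called at 96 h were 3071 and 1762 and between the times 95 and 178, and 0 proteasome genes passed between the times, as also with the 2 groups alone. DESeq2 called 17 proteasome genes between the times, and 5079 and 1827 loci at 48 h and between the times. exactTest called 704 loci between the times. A mean count of at least 50 gave 2 proteasome genes between the times, and upper-quartile scaling gave 10 at 96 h. With each animal left out in turn, proteasome calls ran from 26 to 34 at 48 h, from 14 to 21 at 96 h and from 0 to 1 between the times, and all loci from 1564 to 3465, 2210 to 4685 and 2 to 344. With the longest transcript as length, the vehicle median per kb was 33.5 CPM, and the ratios of PSMB8 to PSMB5 in vehicle and of PSMB9 to PSMB6 in vehicle and at 96 h were 0.0975, 0.105 and 0.0974. The cause of these shifts was not tested, and the left-out fits also hold fewer animals. The labels pair no animals. Age class as a block sets TP07 with TP08, TP11 with TP12, and TP09 with TP10 and the 96 h animals, and it gave 33 proteasome genes at 48 h and 15 at 96 h, with 3227 loci in all at 48 h. PSMC1, PSMB8, PSMB9, PSMB10 and PSMA8, all under 20 CPM in every library, had the widest SE.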
